A study of Mus musculus with 6 samples.

Results

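Cluster 9 of the NG2 line holds 218 of the 10455 sorted NG2-tdT+ cells of mouse cerebral cortex, in a series of 17033 cells from 6 libraries. Its members are the cells that carry cluster number 9 in the deposited cell table of the NG2 line, and its cells expressed the microglial genes C1qa, C1qb, Tyrobp, Ctss, Fcrls and Trem2. Microglia are the resident macrophages of the brain parenchyma. They survey the tissue through receptors such as P2ry12 and Cx3cr1, depend on signalling through Csf1r, tag and clear material with complement C1q and Trem2, and their identity is held by factors such as Spi1 (PU.1) and Sall1. After injury they are known to lose part of their resting signature, to divide, and to express genes of lysosomes, lipid handling, chemokines and the interferon response.

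The NG2 libraries came from NG2-Cre-ERT2/Ai14-flx mice aged 3-4 months, in which the promoter of NG2 (Cspg4), a proteoglycan of pericytes and oligodendrocyte precursor cells, drives a tamoxifen-dependent Cre that switches on the tdTomato reporter of the Ai14 allele. The naïve group had no injury, the physical injury group had an intracerebral injection of saline, and the ischemic injury group had an injection of endothelin-1 with the nitric oxide synthase inhibitor L-NAME (ET-1/L-NAME). In all groups tamoxifen was given, in the injured groups 7 days before the injury, and injured cortex was taken 3 days after it. Live tdT+/DAPI- cells were sorted, and 1 library per condition was made from pooled animals. There were therefore no replicates: intervals given here are 95% intervals of counting error only, and no test between conditions was possible. The sort, the digestion and the animals pooled cannot be told apart from the condition.

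Cluster 9 held 18 naïve, 36 physical injury and 164 ischemic injury cells, with 183289, 574943 and 3597214 unique transcripts (UMIs) in total. The median cell had 10449.5 UMIs in the naïve, 16124.5 in the physical injury and 19742 in the ischemic injury library, so that the naïve cells were both fewest and shallowest. Cells ranged from 623 to 18715 UMIs in the naïve, from 770 to 38479 in the physical injury and from 638 to 59533 in the ischemic injury library. At these depths a single UMI stood for 5.46 CPM (counts scaled to the same total in every library) in the naïve, 1.74 in the physical injury and 0.278 in the ischemic injury library. Levels below are CPM of the summed counts of all cells of the cluster in a library. For a gene with no UMI in the naïve library, folds given as "at least" use a floor of 3 counts (16.4 CPM). The two-sided exact interval of such a gene reaches 20.1 CPM. A fold given as "at least" is the ratio to the floor and leaves out the counting error of the other library. Ratios are log2 ratios of CPM + 1, with absent genes at 0 CPM. Only medians given with absent genes at their bound use the floor. The median share of mitochondrial transcripts was 2.19%, 4.12% and 2.40% in the naïve, physical injury and ischemic injury cells. None of the cell barcodes of cluster 9 occurred in another library.

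The microglia label held against the markers. C1qa, a chain of complement C1q, was at 3732 CPM in the naïve, 5138 in the physical injury and 6017 in the ischemic injury cells. It had a UMI in 91.7% of the cells of cluster 9, against 0.467% of the cells of cluster 1, the canonical pericytes, and the next highest cluster of the line stood at 2.09 CPM. Tyrobp, the adaptor through which Trem2 signals, was at 1877, 2251 and 2927 CPM, and Trem2 at 1146, 1113 and 1273 CPM in the naïve, physical injury and ischemic injury library. After each cell was thinned to 1000 UMIs (205 cells kept, 13 shallower cells left out), C1qa was found in 90.2%, P2ry12 in 34.6% and Tmem119 in 18.05% of the cells of cluster 9, against 0.0622%, 0.249% and 0% of cluster 1. Of 218 cells, 188 had a UMI of 10 or more of 15 genes shared by myeloid cells, and none lacked them all. Fewer than 3 of 10 genes that separate microglia from other myeloid cells were seen in 25 cells, which had a median of 1289 UMIs over all libraries and of 3940 UMIs in the 3 naïve cells among them.

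Markers of other blood cells were low, while genes of border macrophages were present in part of the ischemic injury cells. The border macrophage genes Ms4a7 and Mrc1 had a UMI in 31.1% and 29.9% of the ischemic injury cells, although Cd163, a scavenger receptor of these macrophages, had none in any of the 218 cells. The neutrophil genes S100a9 and Camp and the natural killer gene Nkg7 also had no UMI. The 7 monocyte genes in the table summed to 180, 47.0 and 67.0 CPM in the naïve, physical injury and ischemic injury library, led by S100a4 in the naïve and Ms4a4c in the injured libraries. All of the naïve monocyte UMIs came from 1 cell, which had 16935 UMIs, 606 of them from Cd74, the invariant chain of MHC class II. That cell held 9.24% of the naïve UMIs and had a UMI of 11 of the 15 shared myeloid genes but of only 1 of the 10 microglia genes. Without it the naïve level of S100a4 was 0 in place of 142 CPM, that of Vim 6.01 in place of 54.6, that of Axl 6.01 in place of 16.4, that of Il1b 72.1 in place of 202 and that of Ifitm3 30.1 in place of 87.3 CPM. List medians that it moved by over 1.5 times are given with and without it. Ccr2, which marks monocytes, was at 38.2 CPM (all of it in that cell), 0 and 5.84 CPM, and Ly6c2 at 0, 0 and 13.3 CPM. The 6 neutrophil genes in the table summed to 169, 169 and 109 CPM, nearly all of it Csf3r, a receptor that microglia also express. The 5 lymphocyte genes stood at 16.4, 0 and 1.39 CPM (led by Cd3d in the naïve library), the 2 dendritic cell genes found in the table (of 7 listed) at 21.8, 13.9 and 7.78 CPM, led by Zbtb46, and the erythrocyte genes at 0, 1.74 and 3.61 CPM.

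Spi1 encodes PU.1, which binds DNA around a purine-rich GGAA core, and the windows around the transcription starts of the genes that define cluster 9 were read for the letters GAGGAAG, a common form of that site, and for the reverse complement CTTCCTC. Of the 15 shared myeloid genes and the 15 homeostatic microglia genes, 11 of each matched the RefSeq promoter table (GRCm38.p6), which runs from 250 bases before to 50 bases after each start. The letters occurred in 5 of 13 promoters of the shared myeloid genes (38.5%), in 3 of 13 of the homeostatic genes (23.1%) and in 4477 of all 32851 promoters (13.6%). A match is a description of the sequence, and binding was not measured. The promoters of the 3 label markers that held the letters are shown 5′ to 3′ on the strand of the gene, with the matching bases in capitals. Ctss (chr3:95526536-95526835, plus strand) has the reverse complement 1 base before its start, Trem2 (chr17:48346151-48346450, plus strand) has it 41 bases before, and Fcrls (chr3:87263475-87263774, minus strand) has the forward form 144 bases before.
Ctss: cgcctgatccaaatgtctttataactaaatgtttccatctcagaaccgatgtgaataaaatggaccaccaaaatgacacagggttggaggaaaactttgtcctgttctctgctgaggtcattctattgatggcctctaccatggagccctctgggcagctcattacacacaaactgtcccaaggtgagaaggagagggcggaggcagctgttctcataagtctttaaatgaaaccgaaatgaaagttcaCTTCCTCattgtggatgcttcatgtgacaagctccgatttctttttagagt
Trem2: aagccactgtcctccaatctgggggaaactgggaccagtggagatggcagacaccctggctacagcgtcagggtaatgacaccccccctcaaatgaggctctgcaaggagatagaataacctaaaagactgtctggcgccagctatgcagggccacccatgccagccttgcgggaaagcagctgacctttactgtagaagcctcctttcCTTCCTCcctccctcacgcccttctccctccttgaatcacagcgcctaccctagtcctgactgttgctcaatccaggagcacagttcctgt
Fcrls: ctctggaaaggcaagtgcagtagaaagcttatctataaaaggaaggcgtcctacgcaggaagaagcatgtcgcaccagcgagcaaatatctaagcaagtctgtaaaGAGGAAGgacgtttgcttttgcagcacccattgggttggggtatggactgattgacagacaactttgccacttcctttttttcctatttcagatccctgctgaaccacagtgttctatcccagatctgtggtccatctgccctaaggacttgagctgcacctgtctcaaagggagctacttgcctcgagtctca

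Cells of cluster 9 made up a larger share of the sorted cells in the injured libraries, and the largest in ischemic injury. They were 18 of 4306 naïve cells (0.418%, exact interval 0.248 to 0.660%), 36 of 2563 physical injury cells (1.40%, 0.986 to 1.94%) and 164 of 3586 ischemic injury cells (4.57%, 3.91 to 5.31%). The ischemic injury share exceeded the naïve share by 4.16 percentage points (interval 3.45 to 4.91) and the physical injury share by 3.17 points (2.32 to 4.02). The order changed with the denominator. Among the cells outside the mural clusters, cluster 9 gave 5.31% of the 339 naïve cells, 3.24% of the 1111 after physical and 8.45% of the 1941 after ischemic injury. On that denominator the ischemic injury share was 5.21 points (3.50 to 6.85) above that of physical injury, while the interval of its difference from naïve (3.14 points, -0.0472 to 5.65) and that of physical injury from naïve (-2.07 points, -5.17 to 0.387) included 0. These are shares of reporter-positive cells that passed the sort, not of cortical cells.

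**Figure D1:**
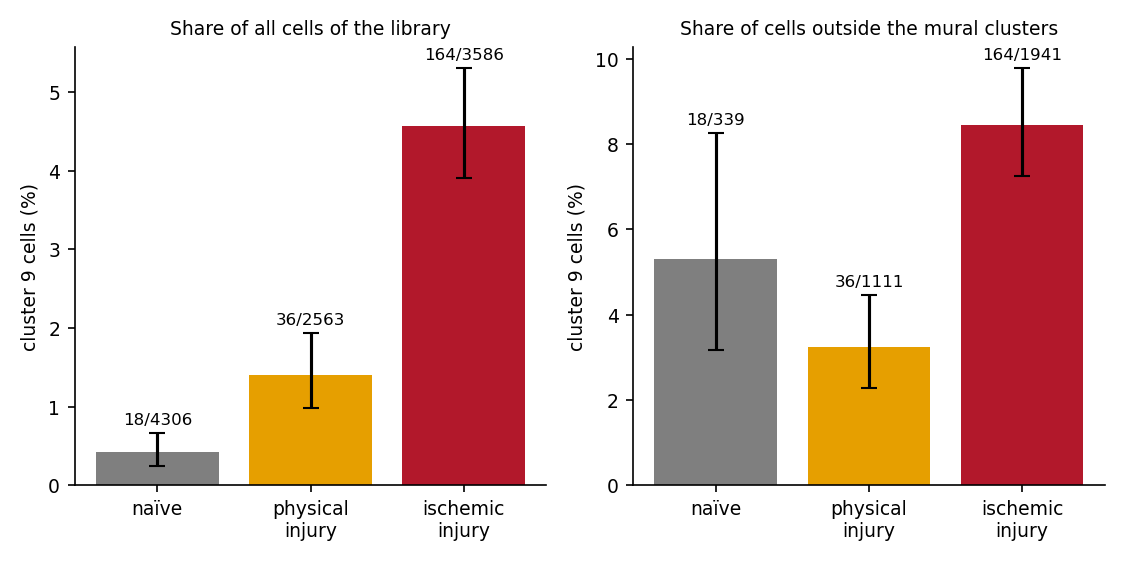
Share of cluster 9 among all sorted cells and among the cells outside the mural clusters in the naïve, physical injury and ischemic injury libraries of the NG2 line; y axis in percent from 0, bars with exact 95% counting intervals. The share of all cells is 0.418% in naïve and 4.57% in ischemic injury, while among non-mural cells the physical injury bar (3.24%) is the lowest.

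The driver of the reporter, Cspg4 (NG2 itself), was close to absent from the cluster. Its level was 0, 3.48 and 13.6 CPM in the naïve, physical injury and ischemic injury cells of cluster 9, against 769, 675 and 744 CPM in cluster 1. A UMI of Cspg4 was found in 0 of 18, 2 of 36 and 21 of 164 cells of cluster 9, and no row for the tdTomato reporter itself was among the rows used here. Without 6 ischemic injury cells that carried pericyte transcripts (sub-cluster 4 below), Cspg4 was at 6.72 CPM in the ischemic injury library.

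Between ischemic injury and naïve, 605 of 3886 genes with at least 50 CPM in the higher library were 2-fold or more higher (15.6%) and 543 were 2-fold or more lower (14%). For physical injury and naïve the same shares were 11.5% and 7.98% of 3886 genes, and for ischemic and physical injury 3.13% and 3.99% of 3708 genes. These are the backgrounds against which the gene lists below can be read. The balance of higher and lower depended on the scaling. Of the genes past 2-fold between ischemic injury and naïve, 52.7% were higher with CPM and 70.0% with TMM factors, which moved the median of all genes from -0.04 to 0.19. Between ischemic and physical injury 43.9% were higher with CPM, 63.0% with TMM factors and 33.5% when each cell counted equally. List medians below are on the CPM scale.

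Homeostatic genes of microglia were lower after injury. Of 15 such genes, 10 were 2-fold or more lower and 1 higher in ischemic injury than in naïve cells (median log2 ratio -1.17), and 6 were lower and none higher in physical injury (median -0.80). Between ischemic and physical injury none of 14 tested was past 2-fold (median -0.30). The list summed to 48448 CPM in the naïve, 25771 in the physical injury and 19932 in the ischemic injury cells, of which Cst3, a secreted protease inhibitor, gave the most.

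P2ry12, the purinergic receptor that steers microglial processes (chr3:59216272-59262871, minus strand, GRCm38), was at 1238 CPM (interval 1083 to 1411) in the naïve, 633 (570 to 702) in the physical injury and 406 (385 to 427) in the ischemic injury library. The 3 intervals did not overlap, and the log2 ratio to naïve was -1.61 (-1.81 to -1.40) in ischemic and -0.97 in physical injury. Sall1, a transcription factor of microglial identity (chr8:89027235-89044162, minus strand), was at 240 CPM, 101 and 75.6 CPM, with log2 ratios to naïve of -1.65 in ischemic and -1.24 in physical injury. Sall1 was not limited to cluster 9, and stood at 34.98 CPM in cluster 1 and 47.9 CPM in cluster 10. Tmem119, a membrane protein used to mark resident microglia, was at 480 CPM in naïve, 179 in physical injury and 206 in ischemic injury, so that both injured libraries were lower than naïve and close to each other (0.20, -0.10 to 0.52). Cst3 was at 33264, 13299 and 8616 CPM. Siglech, a lectin of resident microglia, stood at 889, 511 and 263 CPM, and Slc2a5, a fructose transporter, at 191, 45.2 and 28.4 CPM, the largest difference of the list (-2.71 in ischemic injury against naïve).

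Several members did not follow. The lipid-sensing receptor Trem2 differed by 0.15 (-0.05 to 0.36) in ischemic injury against naïve. Fcrls, an Fc receptor-like protein of microglia, was higher, at 906, 1381 and 2114 CPM (1.22, 1.00 to 1.45). Olfml3, a secreted protein of microglia, was at 344, 623 and 656 CPM (0.93, 0.57 to 1.32), higher but short of 2-fold. Cx3cr1, the receptor for the neuronal chemokine fractalkine, differed by -0.79, short of 2-fold. The number of homeostatic genes past 2-fold lower in ischemic injury was 6 when each cell counted equally, and 5 without the cells that carried border macrophage genes (median -0.80).

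**Figure D2:**
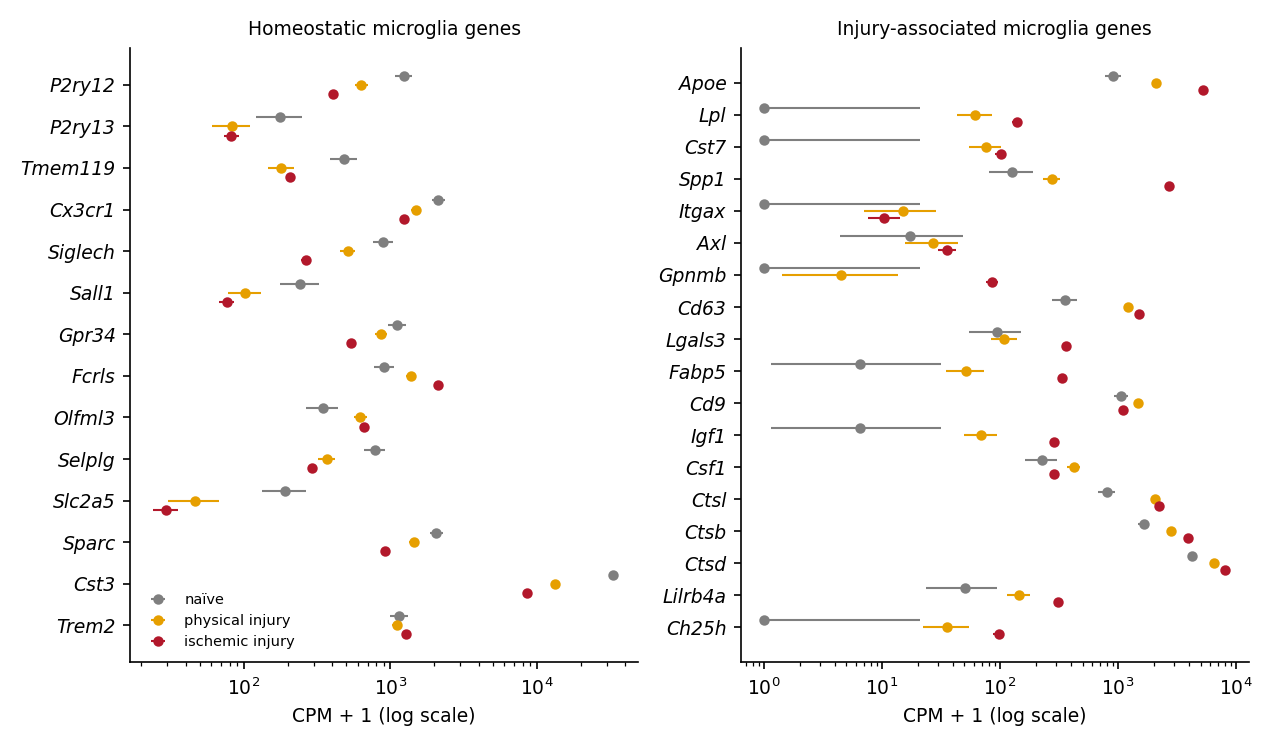
Levels of homeostatic (left) and injury-associated (right) microglial genes in cluster 9, one row per gene shown, in the naïve, physical injury and ischemic injury libraries; x axis in CPM + 1 on a log scale, points with 95% counting intervals. Most homeostatic genes have their naïve point furthest right (P2ry12 at 1238 against 406 CPM in ischemic injury), and most injury-associated genes their ischemic injury point (Apoe at 5250 against 900 CPM in naïve).

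Genes shared by all myeloid cells differed little as a group. Of 15 such genes 2 were 2-fold or more higher and none lower in ischemic injury than in naïve cells (median 0.23), 1 was higher in physical injury (median 0.26, which was -0.19 when each cell counted equally), and none was past 2-fold between the injured libraries (median 0.01). The 2 of 15 are no larger a share than the 15.6% of all genes tested. Cd68, a lysosomal glycoprotein, was at 289, 584 and 743 CPM (1.36, 0.97 to 1.78), and Fcer1g, the signalling chain of activating Fc receptors, at 1222, 1743 and 2697 CPM (1.14). Spi1 was at 306, 370 and 358 CPM, within counting error of one another (0.23, -0.16 to 0.64, in ischemic injury against naïve). Csf1r, the receptor that microglia need to survive, stood at 2051, 1485 and 1304 CPM (-0.65). Of 8 complement and Fc receptor genes tested, 1 was higher and 1 lower in ischemic injury than in naïve. Fcgr4, an activating Fc receptor, had no UMI in the naïve cells and was at 45.2 and 66.7 CPM after physical and ischemic injury, at least 4.08-fold higher in ischemic injury.

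Injury-associated genes of microglia were higher in both injured libraries. Of 16 tested in ischemic injury against naïve, 13 were 2-fold or more higher and none lower (median 2.59, or 2.46 with the genes absent from naïve cells set to their bound, or 3.57 without the naïve cell high in Cd74). Of 14 tested in physical injury 9 were higher and none lower (median 1.27), and between ischemic and physical injury 9 of 16 were higher and none lower (median 1.14). Clec7a, a further gene of the list, had no row in the table, and Axl and Itgax stayed under 50 CPM in every library (16.4, 26.1 and 34.7 CPM, and 0, 13.9 and 9.45 CPM).

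Among the lipid carriers and enzymes, Apoe, the main apolipoprotein of brain (chr7:19696109-19699188, minus strand), was at 900 CPM (768 to 1049) in the naïve, 2077 (1961 to 2198) in the physical injury and 5250 (5176 to 5326) in the ischemic injury library. Its log2 ratio to naïve was 2.54 (2.32 to 2.77) in ischemic and 1.21 in physical injury, although 34.7% of the physical injury UMIs lay in 1 cell. Lpl, which frees fatty acids from lipoproteins, had no UMI in naïve cells and was at 60.9 and 138 CPM after physical and ischemic injury, at least 3.72-fold and 8.42-fold higher. Fabp5, a fatty acid binding protein, rested on a single UMI in the naïve library (5.46 CPM) and was at 50.4 and 334 CPM in the injured ones. Plin2, which coats lipid droplets, was at 65.5, 290 and 453 CPM, with log2 ratios to naïve of 2.13 in physical and 2.77 in ischemic injury.

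Spp1, the secreted phosphoprotein osteopontin (chr5:104435118-104441050, plus strand), set ischemic injury apart from physical injury. It was at 125 CPM in naïve, 273 in physical injury and 2705 in ischemic injury, a log2 ratio of 3.30 (3.08 to 3.54) between the injured libraries. The ratio was 4.49 when each cell counted equally and 6.21 without the cells that carried border macrophage genes. The cells with a UMI numbered 1 of 18, 6 of 36 and 85 of 164. A single cell held all of the naïve UMIs and 86.6% of those in physical injury, while in ischemic injury the highest cell held 21.4%. Among other secreted and membrane proteins of the list, Igf1, a growth factor, was at 5.46, 67.8 and 285 CPM, with 1 naïve UMI behind the log2 ratio of 5.47 (3.23 to 11.01) in ischemic injury and 66.7% of the physical injury UMIs in 1 cell. Gpnmb, a glycoprotein of lipid-laden phagocytes, was at 0, 3.48 and 85.1 CPM and was seen in 13.4% of the ischemic injury cells. Cd63, a tetraspanin of late endosomes, was at 355, 1211 and 1510 CPM and the tetraspanin Cd9 at 1058, 1478 and 1109 CPM.

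The lysosomal proteases of these lists were abundant already in the naïve cells, and some were higher after injury. Ctsd was at 4272, 6442 and 8068 CPM (0.92 in ischemic injury against naïve), Ctsb at 1648, 2785 and 3884 CPM (1.24) and Ctsl at 802, 2038 and 2226 CPM (1.47). Ctss went the other way, at 3268, 2774 and 2787 CPM (-0.23, -0.35 to -0.11), and like Ctsd it stayed short of 2-fold. Cst7, an inhibitor of such proteases, had no naïve UMI and was at 74.8 and 100 CPM, at least 4.57-fold and 6.11-fold higher, with 48.8% of the physical injury UMIs in 1 cell. In the broader list of lysosomal and lipid handling genes 3 of 13 were higher and 1 lower in ischemic injury than in naïve (median 0.46). Msr1, a scavenger receptor, was at 0, 34.8 and 130 CPM (at least 7.95-fold higher in ischemic injury). Mertk, a receptor for the uptake of dying cells, was the lower gene, at 666, 692 and 287 CPM, with a log2 ratio of -1.27 (-1.44 to -1.10) against physical injury.

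Interferon-response genes were higher in both injured libraries and less different between them. All 9 genes tested were 2-fold or more higher in ischemic injury than in naïve (median 3.31, or 2.23 with absent genes at their bound), all 7 tested in physical injury (3.57, or 2.23), and 2 of 10 were higher in ischemic than in physical injury (median 0.44). In naïve cells 7 of the 14 listed genes had no UMI, and only Ifitm3 and Bst2 reached 50 CPM. The other genes tested passed that minimum only through the injured library, so against naïve they could only be higher. The naïve cell high in Cd74 held 40% of the naïve UMIs of the list, and without it the medians were 5.76 in ischemic and 5.51 in physical injury. Absent genes were not set to their bound in these medians, so they compare with 3.31 and 3.57 and are not bounds. The list summed to 273, 1771 and 2688 CPM. Ifi27l2a, an interferon-induced gene (chr12:103442167-103443680, minus strand), was at 49.1, 593 and 1200 CPM, with log2 ratios to naïve of 3.57 in physical and 4.58 (3.69 to 5.74) in ischemic injury (5.51 and 6.53 without that cell). Bst2, which tethers budding viruses, was at 70.9, 337 and 484 CPM, and Ifitm3, which restricts viral entry, at 87.3, 212 and 413 CPM.

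The physical injury value leaned on few cells: 1 cell held 42.9% of its interferon-response UMIs, and 64.8% of those of Ifitm3 and 80% of those of Isg15, a ubiquitin-like protein that stood at 0, 191 and 118 CPM, lay in 1 cell each. When each cell counted equally, 9 of the 10 genes were 2-fold or more higher in ischemic than in physical injury (median 1.23). Other clusters varied. The list was at 1210, 1531 and 2353 CPM in the pericytes of cluster 1, at 2489, 5127 and 4882 CPM in cluster 8, at 3454, 4062 and 3969 CPM in cluster 5 and at 1509, 481 and 297 CPM in cluster 7. Whether the levels in cluster 9 share a source with those was not tested.

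Chemokines and cytokines were expressed at high levels in every library, and the list differed most in a few members. Of 15 tested, 6 were 2-fold or more higher and none lower in ischemic injury than in naïve (median 0.72, or 9 higher and 1.22 without the naïve cell high in Cd74), 4 of 16 were higher in physical injury (0.54), and between the injured libraries 1 was higher and 1 lower of 16 (median -0.14, which was 0.0050 when each cell counted equally). Ccl4 (4588, 6319 and 4659 CPM), Ccl3 (2335, 2588 and 2232 CPM) and Tnf (1184, 1351 and 1282 CPM) were all above 1000 CPM in naïve cells and moved by under 2-fold. The ligands of monocyte receptors differed more. Ccl12 was at 92.7, 718 and 925 CPM (3.30 in ischemic injury against naïve), Ccl2 at 382, 638 and 883 CPM (1.21), and the neutrophil attractant Cxcl2 at 464, 741 and 1453 CPM (1.65). Cxcl10, an interferon-induced attractant of lymphocytes, was at 125, 609 and 525 CPM. In physical injury 1 cell held 48.2% of the UMIs of Ccl12 and 1 cell 49.4% of those of Cxcl10. Il1b was the member higher in ischemic than in physical injury (202, 139 and 401 CPM, 1.52), although 67.6% of its naïve UMIs were in 1 cell. Ccl5 was the member lower there, and all of its physical injury UMIs (150 CPM) were in 1 cell.

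Antigen presentation genes gave opposite directions with and without the naïve cell high in Cd74. With all cells, 6 of 10 tested were 2-fold or more lower and none higher in ischemic injury than in naïve (median -1.10), and 5 of 10 in physical injury (median -1.08). That 1 cell held 65.7% of the naïve UMIs of the list. Without it the summed naïve level was 3432 in place of 9089 CPM, the medians were 0.63 and 0.22, and none of the genes tested was 2-fold or more lower. Cd74 itself was at 3328, 66.1 and 132 CPM, with 99.3% of its naïve UMIs in that cell. Its log2 ratio to naïve was -4.64 with the cell and 2.41 without in ischemic injury, and -5.63 and 1.42 in physical injury. MHC class I genes, which the cell did not decide, were at 1391, 1682 and 2476 CPM for B2m and 447, 529 and 719 CPM for H2-K1, short of 2-fold in both comparisons with naïve.

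Immediate early and dissociation stress genes were highest in the naïve cells. Of 17 tested, 13 were 2-fold or more lower and none higher in ischemic injury (median -1.75), 12 of 18 were lower in physical injury (median -1.16), and 2 of 17 were lower in ischemic than in physical injury (median -0.48). The list summed to 39189.5, 18249 and 12749 CPM. Jun (chr4:95049034-95052222, minus strand), a subunit of the AP-1 transcription factor, was at 6492, 2258 and 1182 CPM (-2.46 in ischemic injury against naïve), Fos at 4894, 1433 and 1206 CPM (-2.02) and Jund at 2073, 746 and 285 CPM (-2.86). Dusp1, a phosphatase that ends MAP kinase signals, was at 1680, 457 and 339 CPM. Hspa1a, a heat shock protein, was at 556, 80.0 and 57.0 CPM, with 66.7% of its naïve UMIs in 1 cell.

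These genes are also known to be induced when tissue is digested at warm temperature, and they differed between the libraries outside cluster 9. The same list stood at 11344, 4939 and 6262 CPM in cluster 1, at 41864, 15185 and 20205 CPM in cluster 8 and at 7129, 4776 and 3073 CPM in cluster 4, each highest in the naïve library. It stood at 7589, 7662 and 7523 CPM in cluster 6 and was highest in ischemic injury in cluster 10 (7734, 4175 and 10736 CPM). The part of digestion in the values of cluster 9 was not tested.

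**Figure D3:**
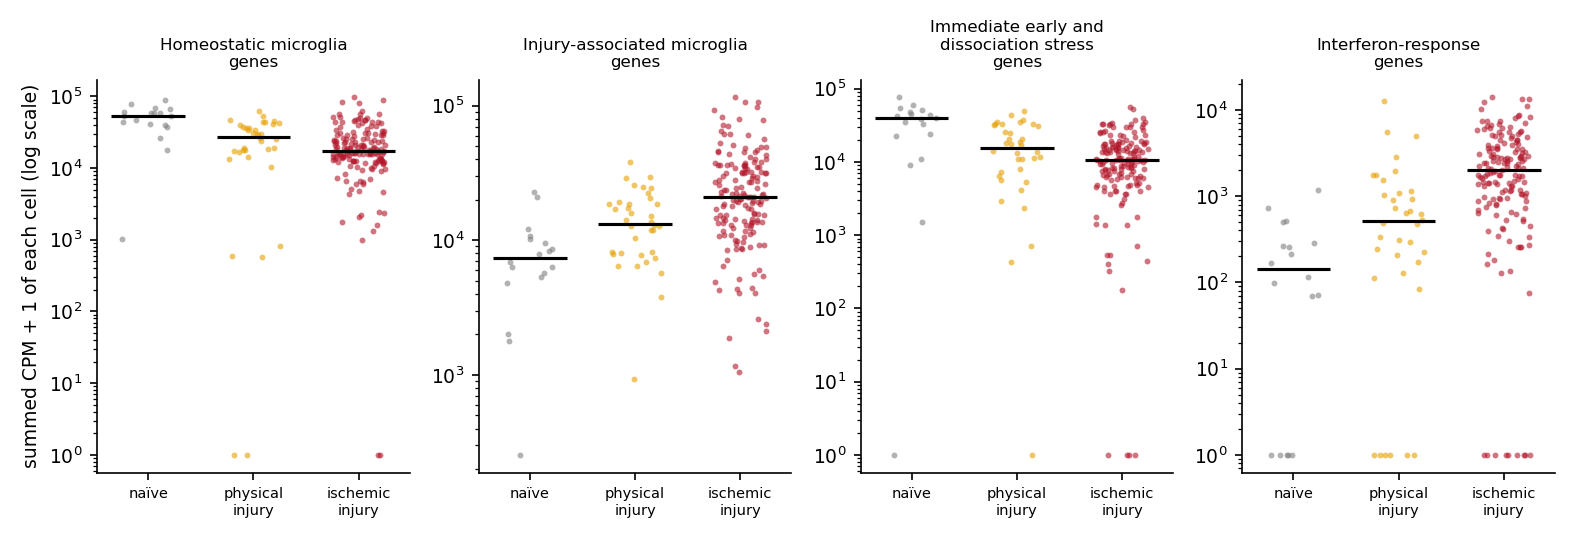
Summed level of 4 gene lists in every cell of cluster 9 (homeostatic, injury-associated, immediate early and dissociation stress, interferon-response), by library; y axis in CPM + 1 on a log scale, each point a cell, bars the medians over cells. The homeostatic median is 53179 CPM in 18 naïve cells and 17355 CPM in 164 ischemic injury cells and the injury-associated median 7356 and 21059 CPM, with overlap between the cells of all 3 libraries.

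A few genes of iron handling and glycolysis were higher in ischemic injury. Of 11 tested in the list of hypoxia, glycolysis and iron genes, 4 were 2-fold or more higher and none lower than in naïve (median 0.61), none of 10 was past 2-fold in physical injury (median 0.16), and 3 of 10 were higher in ischemic than in physical injury (median 0.67). Fth1, the heavy chain of ferritin, was at 4948, 5769 and 10589.6 CPM (1.10 in ischemic injury against naïve, 1.00 to 1.19). Hmox1, which breaks down heme (chr8:75093621-75100589, plus strand), was at 92.7, 165 and 494 CPM, a log2 ratio of 1.58 (1.28 to 1.89) between the injured libraries, with 32.4% of the ischemic injury UMIs in 1 cell. Ldha, which makes lactate at the end of glycolysis, was at 175, 188 and 476 CPM (1.34 between the injured libraries). Vegfa, a hypoxia-induced vascular growth factor, stayed low, at 0, 1.74 and 15.8 CPM. Among the growth factor and TGF-beta genes, 3 of 13 were lower and 1 higher in ischemic injury than in naïve (median -0.65). Tgfbr1, a receptor for TGF-beta, on which the microglial signature depends, was at 851, 917 and 339 CPM (-1.43, -1.58 to -1.28, between the injured libraries).

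Dividing cells were seen in the injured libraries. Mki67, a protein of cycling nuclei (chr7:135689784-135716361, minus strand), was at 5.46 CPM in naïve (a single UMI), 104 in physical injury and 188 in ischemic injury, with a UMI in 1, 8 and 45 cells. At least 2 UMIs of Mki67 were found in 0 of 18, 7 of 36 and 30 of 164 cells. Top2a, the topoisomerase that untangles replicated DNA, was at 0, 116.5 and 161 CPM, at least 7.12-fold higher in physical and 9.83-fold higher in ischemic injury than in naïve. Of 8 mitosis genes tested 7 were 2-fold or more higher in ischemic injury than in naïve (median 6.14, or 2.12 with absent genes at their bound), all 4 tested were higher in physical injury (4.93, or 2.30), and 2 of 8 were higher in ischemic than in physical injury (median 0.72). The last median was -0.47 over 5 genes without the cells that carried border macrophage genes, and without them 3 of 4 genes tested were higher in ischemic injury than in naïve. Of the 14 listed genes 10 had no UMI in the naïve cells, and Pcna gave 104 of the 120 CPM of the list there. The other genes tested reached 50 CPM only through the injured library, so against naïve they could only be called higher. The list summed to 120, 757 and 1120 CPM in cluster 9, against at most 314 CPM in any library of the clusters 0, 1, 2, 3, 4, 5, 6, 8 and 10. In cluster 7 it was higher than in cluster 9, at 537, 1474 and 2527 CPM.

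The genes with the largest ratios in ischemic injury against naïve, among those seen in at least 25% of the cells of the higher library, were all absent from the naïve cells. Ifi207, an interferon-inducible gene, was at 0, 125 and 305 CPM (at least 18.6-fold higher), and Cybb, the catalytic subunit of the phagocyte NADPH oxidase, at 0, 311 and 284 CPM (at least 17.3-fold). Cd5l, a secreted macrophage protein, was at 0, 38.3 and 213 CPM (at least 13.04-fold, with 90.9% of the physical injury UMIs in 1 cell) and Fn1, the matrix protein fibronectin, at 0, 136 and 212 CPM (at least 12.9-fold). Top2a, Sash1, Lpl, Ms4a7, Msr1 and Isg15 completed the 10, Sash1 at 0, 155 and 152 CPM and Ms4a7, a membrane protein of macrophages, at 0, 17.4 and 132 CPM.

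In the opposite direction the largest ratios, after Cd74, included Klf4, a transcription factor that restrains inflammation in several cell types (chr4:55527143-55532466, minus strand), at 889, 87.0 and 72.6 CPM. Its log2 ratio to naïve was -3.34 in physical and -3.60 (-3.90 to -3.32) in ischemic injury, with 37.4% of the naïve UMIs in 1 cell, and the latter was -2.85 without the cells that carried border macrophage genes. Upk1b was at 65.5, 15.7 and 3.06 CPM, Tmem204 at 65.5, 5.22 and 3.61 CPM and Gm13889 at 371, 139 and 32.0 CPM. Dusp18, Hspa1a, Gm26532, Grasp and 8030442B05Rik, with log2 ratios between -3.49 and -3.05, made up the rest. When each cell counted equally, 8030442B05Rik was at -1.74 in place of -3.05 and Gm26532 at -2.49 in place of -3.20. With the deeper library thinned, Dusp18 was at -2.36 in place of -3.49, Tmem204 at -2.48 in place of -3.85, Upk1b at -6.06 in place of -4.03 and 8030442B05Rik at -6.71, and Gm13889 was at -4.36 in place of -3.50 without the cells that carried pericyte genes.

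In physical injury against naïve the 10 largest ratios were Cybb, Isg15, Sash1, Ifi207, Gm17268, Olfr110, Cst7, Foxn2, Lpl and Mdfic, again all without a naïve UMI, with Cybb at least 19.0-fold higher. The 10 in the opposite direction were Cd74, Trit1 (2 UMIs in physical injury), Tmem204, Klf4, Myc, Hspa1a, Stk17b, Il7r, Mfng and Galnt12. The direction of Cd74 reversed without the naïve cell high in it (1.42 in place of -5.63). Myc, a transcription factor of growth, was at 104 CPM in naïve, 12.2 in physical injury and 25.02 in ischemic injury (-2.99 and -2.01). Its ratio in physical injury rested on 7 UMIs against 19 in naïve, and was -1.84 when each cell counted equally.

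Between ischemic and physical injury, the comparison with the deepest libraries, the 10 genes most in favour of ischemic injury included Spp1, Vim, Apoc2, Wfdc17, Ms4a7, Pf4, Fabp5, Tgfbi and Mal. Vim, an intermediate filament protein, was at 54.6, 22.6 and 205 CPM (3.12, 2.39 to 4.09), Apoc2, the cofactor of Lpl, at 0, 8.70 and 78.4 CPM (3.03), and Tgfbi, a secreted adhesion protein, at 32.7, 19.1 and 124 CPM (2.64). The myelin gene Mal rested on 1 ischemic injury cell, which held 72.0% of its UMIs. Without the cells that carried border macrophage genes the ratios were 2.20 for Vim, 1.87 for Wfdc17 and 1.23 for Mal. That of Pf4, itself a border macrophage gene by which those cells were picked, was 0.79 in place of 2.77, short of 2-fold. In favour of physical injury, Gdf15, a stress-induced cytokine, was at 169, 193 and 34.7 CPM (-2.44), with 56.8% of the physical injury UMIs in 1 cell, Fhit at 104, 153 and 38.9 CPM (-1.95, or -1.16 without those cells) and Pik3r1, a regulatory subunit of PI3 kinase, at 551, 744 and 217 CPM (-1.78, -1.95 to -1.61). Gm13889, Gm20594, Mllt3, Kitl, Olfr110, Olfr111 and Zbtb2 were the others, between -2.09 and -1.77. When each cell counted equally Gm20594 was at -1.09 in place of -2.07, Kitl at -1.15 in place of -1.92 and Mllt3 at -3.03 in place of -2.02, and Gm13889 was at -2.95 in place of -2.09 without the cells that carried pericyte genes.

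Some border macrophage genes were seen in part of the ischemic injury cells. Ms4a7, Mrc1, Pf4 and Folr2 had a UMI in 31.1%, 29.9%, 26.8% and 21.3% of them. F13a1 and Cbr2 had a UMI in 4.88% and 4.27%, and Cd163 and Lyve1 in none. The 8 genes summed to 38.2, 45.2 and 287 CPM, led by Mrc1 in the naïve library (6.01 CPM without the naïve cell high in Cd74) and Ms4a7 in the injured ones, and 2 or more of them were seen in 0 of 18, 2 of 36 and 60 of 164 cells. The 60 ischemic injury cells were deeper than the other 104, with a median of 34231.5 against 12757.5 UMIs, and after thinning to 1000 UMIs only 3 of 154 ischemic injury cells kept 2 such genes. In these 60 cells P2ry12 was at 286 CPM against 577 in the other 104, Mki67 at 268 against 74.8 and Apoe at 6315 against 3736 CPM. C1qa, which myeloid cells share, was at 6405 against 5465 CPM, Tmem119 at 166 against 264 CPM and Sall1 at 60.6 against 97.0 CPM. Depth and these levels moved together, and the part of depth was not tested. Without these cells the ischemic injury share of the sorted cells was 2.95% (104 cells) and that of physical injury 1.33% (34 cells).

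Transcripts of other brain cells were present at low levels. Pericyte genes summed to 104, 40.0 and 259 CPM in cluster 9, 0.255%, 0.0982% and 0.637% of their level in cluster 1, with Vtn the most abundant in each library. Without the 6 ischemic injury cells of sub-cluster 4 below, the rest of the cluster stood at 54.8 CPM over all libraries. Oligodendrocyte genes summed to 175, 170 and 730 CPM, and 1 ischemic injury cell held 62.6% of the last value. Endothelial genes stood at 21.8, 22.6 and 19.2 CPM, neuronal genes at 5.46, 5.22 and 5.56 CPM, fibroblast genes at 21.8, 20.9 and 23.4 CPM, smooth muscle genes at 60.0, 8.70 and 47.0 CPM and genes of oligodendrocyte precursors at 32.7, 67.8 and 43.6 CPM. Genes of astrocytes and radial glia were at 202, 150 and 92.6 CPM, of which 191, 125 and 69.5 CPM were from Slc1a3, a glutamate transporter that microglia can also express.

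**Figure D4:**
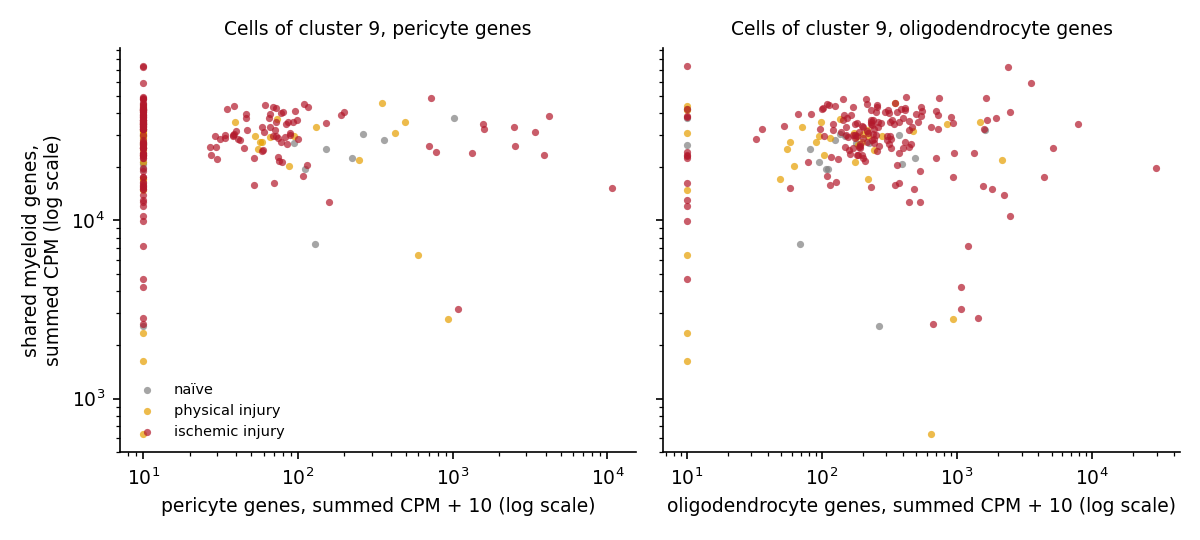
Each cell of cluster 9 by its summed shared myeloid genes (y axis, CPM, log scale) against its summed pericyte genes (left) or oligodendrocyte genes (right; x axes, CPM + 10, log scale), coloured by library. The median cell of each library has no pericyte UMI, and the cell furthest to the right is from the ischemic injury library on both axes (10775 CPM of pericyte and 29802 CPM of oligodendrocyte genes).

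Clustering the 218 cells again gave 5 sub-clusters of 73, 69, 39, 31 and 6 cells, numbered 0 to 4 by size. At a lower and a higher resolution there were 3 and 8, and only sub-clusters 2 and 4 stayed whole at the higher one. Since the cells were grouped by expression, their leading genes are a description. Sub-cluster 0, led by Fhit, Crim1 and Csmd3, held 10 naïve, 22 physical injury and 41 ischemic injury cells, or 55.6%, 61.1% and 25% of the cluster in these libraries, and had the highest P2ry12 (785 CPM). Sub-cluster 1, led by the interferon-response genes Rsad2, Ifit3 and Isg15, held 16.7%, 25% and 34.8% of the cells of the naïve, physical injury and ischemic injury libraries, with P2ry12 at 414 CPM and Apoe at 5872 CPM.

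The leading genes of sub-cluster 2 included Pcdh9, Ptgds and the myelin gene Mbp, and it had a median of 1992 UMIs, against 16381 in sub-cluster 0, so it was left unnamed. These 3 genes had a UMI in 28.2%, 25.6% and 25.6% of its cells. Its deepest member, with 55165 UMIs, was the ischemic injury cell that held 62.6% of the oligodendrocyte UMIs of that library. The leading genes were not summed without that cell. Sub-cluster 2 held 16.7%, 13.9% and 18.9% of the cells of the libraries. Sub-cluster 3, led by S100a6, H2-Ab1, Cd74, Gpnmb and the cyclin Ccna2, held 2 naïve, 0 physical injury and 29 ischemic injury cells (17.7% of the last), with a median of 35666 UMIs, Mki67 at 363 CPM, Cd74 at 904 CPM and the lowest P2ry12 (199 CPM). The naïve cell high in Cd74 was one of its members and held 66.0% of its Cd74 UMIs, and without that cell Cd74 was at 313 and H2-Ab1 at 137 in place of 307 CPM.

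Sub-cluster 4 consisted of 6 ischemic injury cells with both myeloid and pericyte transcripts. Its leading genes included Itga1 and the basement membrane collagens Col4a1 and Col4a2, and Vtn, a secreted protein typical of pericytes, was at 1786 CPM. The 6 cells had 1897 to 54606 UMIs, of which 1 to 99 were Vtn. Their summed pericyte level was 3.88% to 26.5% of that of cluster 1, while their shared myeloid level, 15094 to 38427 CPM, was in the range of the other cells. The origin of the pericyte transcripts in these cells was not tested.

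The Tbx18 line (Tbx18-CreERT2/Ai14-flx mice of the same age, treated alike) also had a myeloid cluster, its cluster 3, with 318 physical injury and 265 ischemic injury cells. Its 76 naïve cells had 17.7 CPM of shared myeloid genes and 22220 CPM of pericyte genes, so the naïve libraries were not compared. The lines differ in the cells their Cre marks and the tables were normalized and clustered separately, so the counts are set side by side and line, sort and library cannot be told apart. Of 3882 genes 18.4% were 2-fold or more higher and 11.2% lower in cluster 9 in physical injury, and of 3895 genes 13.7% were higher and 13.8% lower in ischemic injury. With TMM factors the balance turned: of the genes past 2-fold, 35.1% in place of 62.3% were higher in physical injury and 37.3% in place of 49.9% in ischemic injury, and the median of all genes moved from 0.22 to -0.25 and from 0.10 to -0.12.

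Cluster 9 had more of the homeostatic microglial genes than the myeloid cells of the Tbx18 line. All 14 tested were 2-fold or more higher in physical injury (median 3.47, or 13 of 14 and 3.09 with TMM factors) and 13 of 14 in ischemic injury (median 3.40). P2ry12 was at 633 and 406 CPM in cluster 9 against 39.4 and 43.3 CPM in the Tbx18 cluster after physical and ischemic injury, Sall1 at 101 and 75.6 against 0.502 and 0.968 CPM, and Fcrls at 1381 and 2114 against 189 and 173 CPM. Shared myeloid genes summed to 27347 and 31121 against 14762 and 13705 CPM.

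Genes of other myeloid cells were on the other side. All 4 border macrophage genes tested were lower in cluster 9 in both conditions (summed 45.2 and 287 against 1910 and 1578 CPM), as were all 4 and all 6 monocyte genes tested (47.0 and 67.0 against 1465 and 2023 CPM). In cluster 9 no monocyte gene exceeded 20.9 CPM after either injury, and no border macrophage gene exceeded 17.4 CPM after physical injury. Such genes reached the minimum for testing only through the Tbx18 cluster, so they could only be called lower. Their counts add nothing to the summed levels. In ischemic injury Ms4a7, Mrc1 and Pf4 passed the minimum within cluster 9 (132, 68.1 and 53.1 CPM), so their direction was open. Ccr2 was at 0 and 5.84 CPM against 467 and 554 CPM. Of 12 antigen presentation genes 9 were lower in physical and 8 in ischemic injury and none higher, with Cd74 at 66.1 and 132 against 13818 and 11818 CPM. Mitosis genes were higher in cluster 9, all 4 tested in physical and all 8 in ischemic injury (757 and 1120 against 209 and 260 CPM). With TMM factors 2 of 3 and 7 of 8 were higher, and 2 of 3 and 5 of 6 when each cell counted equally. The injury-associated list was split, with 8 of 15 higher and 5 lower in physical injury and 12 of 18 higher and 3 lower in ischemic injury. Apoe, for one, was at 2077 and 5250 CPM in cluster 9 and at 13223 and 10699 CPM in the Tbx18 cluster.

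**Figure D5:**
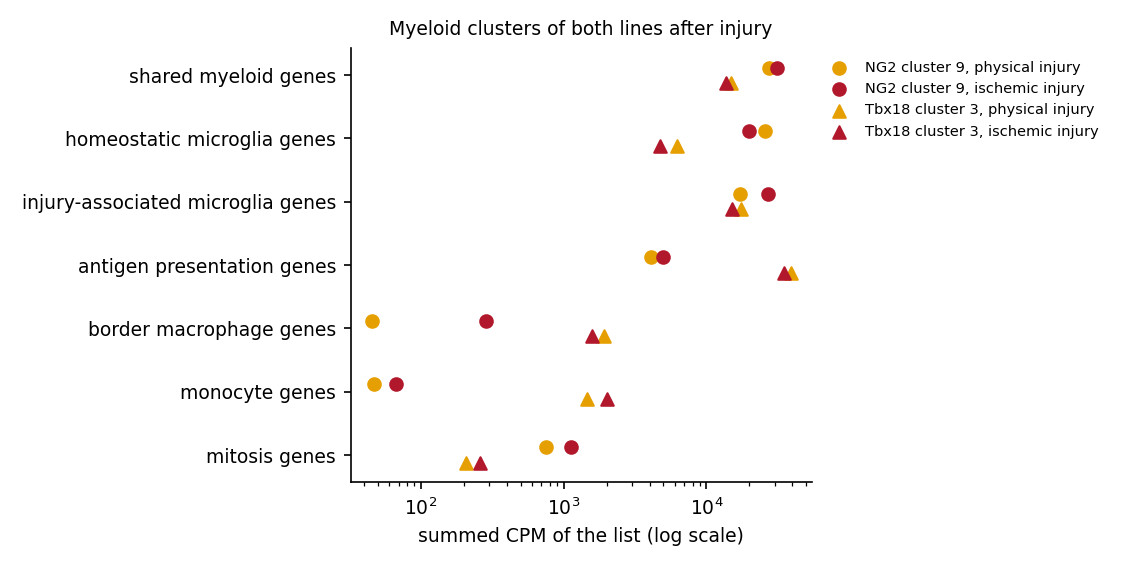
Summed level of 7 gene lists in cluster 9 of the NG2 line and in myeloid cluster 3 of the Tbx18 line, in the physical injury and ischemic injury libraries; x axis in CPM on a log scale, one row per list. Homeostatic and mitosis genes lie further right for the NG2 cluster (19932 against 4739 CPM of homeostatic genes in ischemic injury), and antigen presentation, border macrophage and monocyte genes for the Tbx18 cluster.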

How the data were processed

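The files hold the UMI count of each gene in each cell; the authors obtained these counts with Cell Ranger (7.0.0 in the submitters' processing notes) on GRCm38/mm10 from 10x Genomics 3' libraries and deposited them after removing low-quality cells by gene number, gene and UMI spread and mitochondrial share and after removing Gm42418 and AY036118. The deposited percent of mitochondrial transcripts (at most 11.96% in the NG2 cells) and the cluster numbers, from SCT normalization and CCA integration of the 3 NG2 libraries, are the authors' own. Tables of the 2 lines were processed separately.

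Raw counts of cluster 9 were summed per library and scaled to CPM over 22833 genes, with exact Poisson intervals for levels, exact conditional binomial intervals for ratios and Clopper-Pearson intervals for shares. A gene was compared where its higher library had at least 50 CPM and counted where it differed by 2-fold or more on the scale of CPM + 1. That scale shrinks the ratio of low genes with a UMI in both libraries. For a gene absent from a library the ratio can lie far above its lower counting limit (Ifi207 in ischemic injury against naïve, 8.26 against 3.92). Absent genes entered the calls, the ranking and the main medians at 0 CPM. A floor of 3 counts per library was used only for folds given as "at least" and for medians with absent genes at their bound. Named genes are the 10 largest ratios each way with at least 50 CPM, a UMI in at least 25% of the cells of the higher library and an interval that leaves out 0, without mitochondrial, sex-linked and the removed genes. Named as well are members of 26 lists (282 distinct genes), some of which are not reported here. Cluster members and lists were chosen with earlier results of these data known. Mural clusters are 0, 1, 2, 3, 8 and 10. No doublet caller was run, since the cluster is small, and cells with transcripts of another type are given as measured. Sub-clusters came from 2000 variable genes, 20 components, 15 neighbours and Leiden clustering at resolution 0.5 (scanpy 1.11.5, leidenalg 0.10.2). Sums were made with numpy 2.4.6, pandas 2.3.3 and scipy 1.17.1 under Python 3.11.15, and TMM factors came from edgeR 4.0.16 in R 4.3.3. The comparison was tested on simulated counts for 22833 genes, drawn around a profile pooled over the libraries with counting error only. Of 102 genes changed 4-fold between ischemic injury and naïve, 102 were recovered, and 42 of 3103 unchanged genes were past 2-fold. Between physical injury and naïve these were 101 of 102 and 70 of 3103. Cells and animals did not vary in the simulation, so these rates do not cover values that rest on few cells.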

Additional observations from a re-analysis of the deposited data

Results flagged for a closer look

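Hmox1, the heme oxygenase, differed in opposite directions between ischemic and physical injury in the myeloid cells of the 2 lines. In cluster 9 of the NG2 line its log2 ratio was 1.575 (counting interval 1.28 to 1.89), from 165 to 494 CPM. In cluster 3 of the Tbx18 line it was -2.304 (-2.52 to -2.13), from 309 to 61.7 CPM. With 1 library per line and condition the difference between the lines was not tested, and 1 cell held 32.4% of the ischemic injury UMIs in cluster 9.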

How the results depend on the processing

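The naïve library, with 18 cells and 183289 UMIs, limits every comparison with it: a gene without a naïve UMI has an exact upper limit of 20.1 CPM, and 1 cell can decide a value. Each result was counted once for every setting it was run under, so that 1 result can be counted as kept, moved and reversed. For results other than single named genes, 370 such values kept their size within the counting interval (or, for counts, within 1.5 times), 58 moved and 4 reversed. Of the values of single named genes 740, 36 and 4 did. Leaving out the naïve cell high in Cd74 and keeping only cells with 3 or more of 10 microglia genes were settings chosen after seeing the data. The cause of the changes was not tested, except where the setting itself changes the genes or cells counted. No paired analysis was possible because each condition has 1 sample.

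With a minimum of 10 CPM, 1764 genes were higher and 1468 lower in ischemic injury against naïve, 1734 and 1237 in physical injury against naïve, and 520 and 546 in ischemic against physical injury; without a minimum, 4618 and 2102, 4432 and 1978, and 2122 and 1615. The median of the chemokine list between the injured libraries was then -0.0011 and 0.074. When each cell counted equally, 775 and 520 genes were higher and lower in physical injury against naïve, and 299 and 594 in ischemic against physical injury. That setting gave medians of -1.49 for the immediate early list (ischemic injury against naïve) and, between the injured libraries, -0.076 for homeostatic, 1.23 for interferon-response, 0.78 for hypoxia and 0.0050 for chemokine genes. Against the Tbx18 cluster it gave 3.16 for homeostatic genes in physical injury, -2.75 for border macrophage and -3.52 for monocyte genes in ischemic injury (-2.93 and -3.92 on the CPM scale). TMM factors gave -1.55 for the immediate early list (ischemic injury against naïve), 0.80 for hypoxia genes between the injured libraries and 3.09 for homeostatic genes against the Tbx18 cluster in physical injury. Thinning the deeper library gave -2.01 for the immediate early list.

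The median of hypoxia genes between the injured libraries was 0.78 with median-of-ratios factors, 0.86 for cells with at most 5% mitochondrial transcripts and 0.85 for cells with at least 2000 UMIs. Without the cells with 2 or more border macrophage genes, the homeostatic median was -0.80 and the immediate early median -1.48 in ischemic injury against naïve, the medians between the injured libraries were -0.028, -0.26 and -0.47 for homeostatic, immediate early and mitosis genes, and the ischemic injury share was 2.95%. Without the naïve cell high in Cd74 the injury-associated median was 3.57, the interferon-response medians 5.76 (ischemic) and 5.51 (physical injury), the antigen presentation medians 0.63 and 0.22, and the Cd74 ratios 2.41 and 1.42. With only cells with 3 or more microglia genes these were 3.49, 5.77, 5.80, 0.63, 0.28, 1.68 and 1.40, and between the injured libraries antigen presentation gave 0.28 and hypoxia genes 0.85. Absent genes were not set to their bound in these medians.

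Among non-mural cells the shares were 5.31%, 3.24% and 8.45%. Thinned to 3000 UMIs, C1qa was seen in 96.5%, P2ry12 in 70.9%, Tmem119 in 45.9% and Tyrobp in 98.3% of the cells. In cells with at most 20000 UMIs pericyte genes summed to 143 and oligodendrocyte genes to 307 CPM. Leiden resolutions of 0.3 and 0.8 gave 3 and 8 sub-clusters.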
